A study of Homo sapiens with 6 samples.

Results

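The UGT2B genes encode UDP-glucuronosyltransferases of subfamily 2B, and 7 of them were followed here: UGT2B4, UGT2B7, UGT2B10, UGT2B11, UGT2B15, UGT2B17 and UGT2B28. They were taken by symbol from the 62696 gene rows of each library, and all 7 were found. The list was drawn up with the difference between knockout and vector libraries already known, so that difference is only described below. Test results of the members are printed with it, but they are no support for it. Read counts came from C4-2, a line of human prostate cancer cells that grows without testicular androgen. There were 3 libraries of cells carrying the vector, whose genotype is labelled WT (the vector libraries), and 3 of cells labelled CDK12 knockout, made with CRISPR-Cas9 (the knockout libraries). All cells were untreated and grew in medium with fetal bovine serum, which itself contains steroids. CDK12 is a kinase of RNA polymerase II. The labels say neither whether the knockout line is 1 clone nor whether replicates were separate cultures, so the spread behind p-values is that between these libraries and may be technical, and other differences between the lines cannot be told apart from the knockout. In bulk RNA, fewer cells that express a gene and less RNA per cell cannot be told apart either.

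UGT2B enzymes sit in the membrane of the endoplasmic reticulum and attach glucuronic acid, taken from UDP-glucuronic acid, to steroids, bile acids and drugs, which makes them water-soluble and ready for export. UGT2B15 and UGT2B17 are the main enzymes that inactivate androgens in the prostate, acting on dihydrotestosterone and on the androstanediol and androsterone formed from it. UGT2B28 also acts on steroids, UGT2B7 conjugates many drugs and steroids, UGT2B4 is known for bile acids and UGT2B10 for nicotine and other amines, and for UGT2B11 few substrates are known. In prostate cancer cells androgen is known to lower the RNA of several of these genes. RNA counts do not measure enzyme activity.

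The 7 genes lie in 1 cluster on chromosome 4, 68537184 to 69526014 (GRCh38, GENCODE 29), and are near copies of each other. Over the 21 pairs, the longest open reading frames were 84.6% to 97.0% identical, highest between UGT2B11 and UGT2B28 (97.0%), UGT2B15 and UGT2B17 (96.5%) and UGT2B10 and UGT2B11 (95.3%). The RefSeq table (GRCh38.p14) held promoters for 4 of the 7. Their 250 bases upstream of the transcription start are shown because 3 of these genes, UGT2B15, UGT2B10 and UGT2B11, were above 1 CPM in every knockout library. The fourth, UGT2B7, stayed below 1 CPM in every library, though it too had more reads in the knockout libraries (23 against 1). The windows lie at chr4:68670653-68670902 (minus strand), chr4:68815744-68815993 (plus strand), chr4:69214749-69214998 (minus strand) and chr4:69096224-69096473 (plus strand), and capitals mark matches to the motifs given after them.
UGT2B15: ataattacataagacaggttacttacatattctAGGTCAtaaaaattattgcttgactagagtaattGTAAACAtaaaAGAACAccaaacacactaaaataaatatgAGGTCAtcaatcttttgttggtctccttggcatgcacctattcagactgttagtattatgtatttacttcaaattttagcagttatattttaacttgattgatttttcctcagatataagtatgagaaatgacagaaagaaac
UGT2B10: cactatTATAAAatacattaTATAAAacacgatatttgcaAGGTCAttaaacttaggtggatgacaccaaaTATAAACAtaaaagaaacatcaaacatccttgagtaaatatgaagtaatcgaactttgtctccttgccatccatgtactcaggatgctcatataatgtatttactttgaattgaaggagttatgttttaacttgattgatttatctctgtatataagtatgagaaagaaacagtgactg
UGT2B11: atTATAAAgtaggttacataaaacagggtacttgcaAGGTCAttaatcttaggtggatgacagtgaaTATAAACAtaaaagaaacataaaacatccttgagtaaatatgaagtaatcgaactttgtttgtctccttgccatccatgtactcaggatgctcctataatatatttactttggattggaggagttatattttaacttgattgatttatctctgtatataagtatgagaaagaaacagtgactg
UGT2B7: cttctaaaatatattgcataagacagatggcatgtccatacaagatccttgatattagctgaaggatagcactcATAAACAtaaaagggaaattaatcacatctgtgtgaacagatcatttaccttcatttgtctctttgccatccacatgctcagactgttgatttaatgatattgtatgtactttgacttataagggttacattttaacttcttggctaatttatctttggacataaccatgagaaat
The UGT2B10 and UGT2B11 windows were 93.1% identical over 246 aligned bases, the UGT2B15 window was 77.4% identical to each of them, and the UGT2B7 window was 68.0% to 73.0% identical to the other three.

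Both strands were searched for 5 motifs, chosen with these sequences in view. A match is a description of letters, not of a bound site. AGGTCA, a half-site of several nuclear receptors, is in the windows of UGT2B15 (at 2 positions), UGT2B10 and UGT2B11 and not in that of UGT2B7, against 12.1% of all 35116 promoter windows of that length. AGAACA, a half-site of steroid hormone receptors, is in UGT2B15 alone of the 4, 172 to 167 bases before the start (12.4% of all windows). The forkhead motif appears at nearly the same place in all 4 windows, as GTAAACA in UGT2B15 (183 to 177 bases before the start, 2.98% of all windows) and as ATAAACA in UGT2B10 (178 to 172), UGT2B11 (182 to 176) and UGT2B7 (176 to 170), a form held by 3.77% of all windows. TATAAA is in UGT2B10 and UGT2B11 (10.7% of all windows), and 1 match in each overlaps ATAAACA. The 4 windows are 67.2% to 71.6% A and T, and the shares over all windows were not matched for that. As the windows are alike in sequence, their matches are not separate observations.

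Counts per gene are given as CPM, the usual read level relative to library size, here with TMM scaling between libraries. Libraries held 16617644 to 21590817 reads counted in genes. Knockout library 2 stood apart from the other 5: its TMM factor was 0.737 against 1.04 to 1.10, and 14.4% of its reads were ambiguous between genes against 11.1% to 12.2%. Results that rest on it are given with and without it. The cells' label was checked against markers. All 10 luminal prostate markers averaged over 1 CPM, KLK3 highest, and their summed level was 9549 to 9720 CPM in the vector and 7939 to 10867 CPM in the knockout libraries. UGT2B genes are known for high expression in liver, so hepatocyte markers were checked too: of 10, only APOA1 and TTR averaged over 1 CPM, ALB was at 0 in all knockout libraries, and their summed level was 1.64 to 3.24 CPM in the vector and 3.45 to 21.8 CPM in the knockout libraries, the highest being knockout library 2 with 14.5 CPM of APOA1. Basal, fibroblast and leukocyte lists summed to 0.283 to 1.76, 22.9 to 30.6 and 0.0629 to 0.259 CPM in the knockout libraries, against 0.614 to 1.04, 21.8 to 23.2 and 0.168 to 2.35 CPM in the vector libraries. CDK12 RNA was at 55.1 ± 6.35 and 58.1 ± 2.35 CPM (SD, n = 3 each) in vector and knockout libraries, a level that does not tell whether the frame was disrupted.

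Reads of the 7 genes together numbered 56, 39 and 63 in the vector replicates and 2556, 1610 and 2145 in the knockout replicates, in order. As a level this was 2.84 ± 0.639 CPM in vector and 111 ± 9.68 CPM in knockout libraries (n = 3 each, ± SD), a ratio of 39.1 and a log2 ratio of 5.29 (5.34 without knockout library 2). The family was therefore detected but scarce in the vector line, and 5 of its members carried nearly all of the knockout line's reads.

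**Figure D1:**
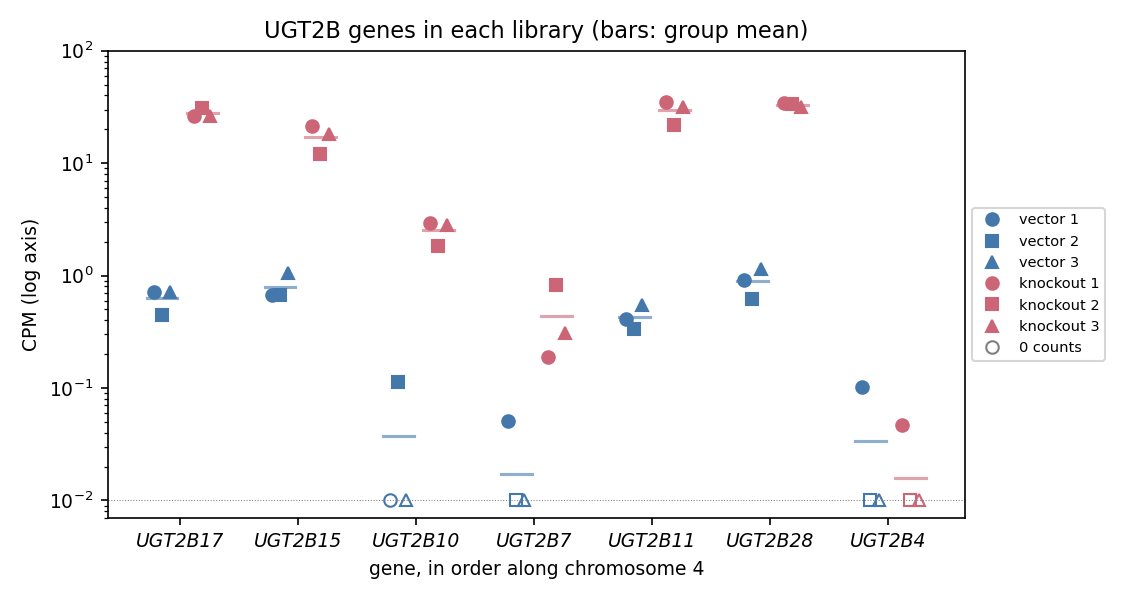
Level of each UGT2B gene in each of the 6 libraries, in CPM on a log axis, with genes in their order along chromosome 4. Horizontal bars are group means (n = 3) and open symbols on the dotted line are libraries with 0 counts. In 6 genes all 3 knockout libraries lie above all 3 vector libraries, and UGT2B4 is near 0 in both groups.

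Of the androgen-inactivating pair, UGT2B17 (ENSG00000197888.3, chromosome 4, 68537184 to 68568527) stood at 0.716, 0.448 and 0.714 CPM in the 3 vector libraries, and in knockout libraries 1 to 3 it reached 26.3, 31.3 and 26.5 CPM. The groups do not overlap, and knockout library 2 was the highest of all. The edgeR log2 fold change was 5.46 ± 0.23 (SE), or 5.37 ± 0.20 without knockout library 2. UGT2B15 (ENSG00000196620.10, 68646630 to 68670628) was at 0.665, 0.672 and 1.04 CPM in the vector and at 21.4, 12.0 and 18.0 CPM in the knockout libraries. Here knockout library 2 was the lowest of the knockouts, though still far above every vector library. Its log2 fold change was 4.42 ± 0.32, the smallest of the members with enough reads for the fit, and 4.62 ± 0.21 without knockout library 2. UGT2B15 was the more counted of the pair in vector libraries 2 and 3 and the less counted in every knockout library. The ratio of UGT2B17 to UGT2B15 reads was 1.08, 0.667 and 0.684 in the vector and 1.23, 2.62 and 1.47 in the knockout libraries. The vector ratios rest on 14 against 13, 8 against 12 and 13 against 19 reads, and are thus known only within wide limits.

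UGT2B28 (ENSG00000135226.18, 69280499 to 69295050) had 0.921, 0.616 and 1.15 CPM with vector and 34.6, 33.4 and 31.6 CPM with knockout. Its knockout libraries were the most alike of the family, with an SD of 1.47 CPM on a mean of 33.2 CPM. The log2 fold change was 5.20 ± 0.23 with all libraries and 5.19 ± 0.18 without knockout library 2. UGT2B11 (ENSG00000213759.10, 69199951 to 69214731), its closest relative in sequence, had 0.409, 0.336 and 0.549 CPM with vector and 35.3, 22.0 and 31.6 CPM with knockout. Knockout library 2 was low, as in UGT2B15. The log2 fold change of UGT2B11 was 6.08 ± 0.30, and 6.25 ± 0.20 without knockout library 2.

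UGT2B10 (ENSG00000109181.12, 68815993 to 68831196) had 0, 2 and 0 reads in the vector libraries and 62, 29 and 55 reads in the knockout libraries, the last being 2.93, 1.82 and 2.84 CPM. With 2 against 146 reads in all, the ratio of levels was 72.0 with an exact 95% interval of 19.6 to 600, which covers counting error only. UGT2B7 (ENSG00000171234.14, 69051363 to 69112987) had 1 read over the vector libraries and 4, 13 and 6 in the knockout libraries, a ratio of 22.7 (3.68 to 934). Both ratios are thus known only within wide limits. As in UGT2B17, knockout library 2 was the highest for UGT2B7, at 0.818 CPM against 0.189 and 0.310. UGT2B4 (ENSG00000156096.14, 69480165 to 69526014), the gene at the far end of the cluster, had 2 reads in vector library 1, 1 read in knockout library 1 and 0 elsewhere, so no fold is given.

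UGT2B4 and UGT2B7 did not pass the filter on low counts, and the other 5 members did. Of these, 5 were called higher in edgeR's quasi-likelihood test (adjusted p under 0.05) with all libraries, where 0.418% of all 15783 tested genes were (0.596% in either direction), and 5 without knockout library 2, where 10.2% of 16339 were. The vector counts of UGT2B10, UGT2B11 and UGT2B17 are too low to pass the filter without the knockout libraries. Because of this, and because the list was chosen from this contrast, nothing is read from those counts of calls. The call of UGT2B10 was lost when any 1 library other than knockout library 2 was left out (edgeR adjusted p = 0.0873 to 0.212), and that of UGT2B15 without vector library 1 or without vector library 2 (edgeR adjusted p = 0.0887 and 0.107). CPM ranges that do not overlap, higher in the knockout libraries, were found in the 5 tested members, beside 20.4% of tested genes. They were also found in UGT2B7, which did not pass the filter.

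Levels of different genes were compared per kilobase of annotated exon. In the knockout libraries the order was UGT2B28 (18.1 ± 0.80 CPM per kilobase), UGT2B17 (13.5 ± 1.36), UGT2B11 (12.7 ± 2.93), UGT2B15 (8.24 ± 2.30), UGT2B10 (1.31 ± 0.318), UGT2B7 (0.194 ± 0.148) and UGT2B4 (0.00628 ± 0.0109; SD, n = 3). The ranges of UGT2B17 and UGT2B11 overlap, as do those of UGT2B11 and UGT2B15, while UGT2B28, UGT2B10, UGT2B7 and UGT2B4 are each apart from their neighbours in that order. In the vector libraries UGT2B28 was also highest, at 0.489 ± 0.147 CPM per kilobase, followed by UGT2B15 (0.382 ± 0.104), UGT2B17 (0.301 ± 0.0743) and UGT2B11 (0.184 ± 0.0464). There the range of each of these genes overlaps that of the next in the order.

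The place of UGT2B11 in this order depends on how its reads were counted. On the opposite strand lies an antisense gene without a symbol (ENSG00000250696, chromosome 4, 69182100 to 69216766). Its exons cover 418 of the 2088 bases of the UGT2B11 transcript, 259 in exon 1 and 159 in the last exon, exon 6. A read in exons of both genes is ambiguous, and is left out, when strand is ignored, and is given to 1 of the genes in each strand column of the deposited tables. Summing the 2 strand columns gave UGT2B11 1223, 805 and 1001 reads in knockout libraries 1 to 3, where the unstranded column had 747, 350 and 612. The difference, 1320 reads or 43.6% of the strand sum, nearly equals that of the antisense gene, 1327 reads. Reads of the antisense gene outside UGT2B11 exons were few: 24, 45 and 14 in the knockout libraries and 2 over the vector libraries. Strand columns with nearly equal totals (ratios of 1.02 to 1.04) do not separate strands, so the shared reads cannot be assigned to either gene.

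**Figure D2:**
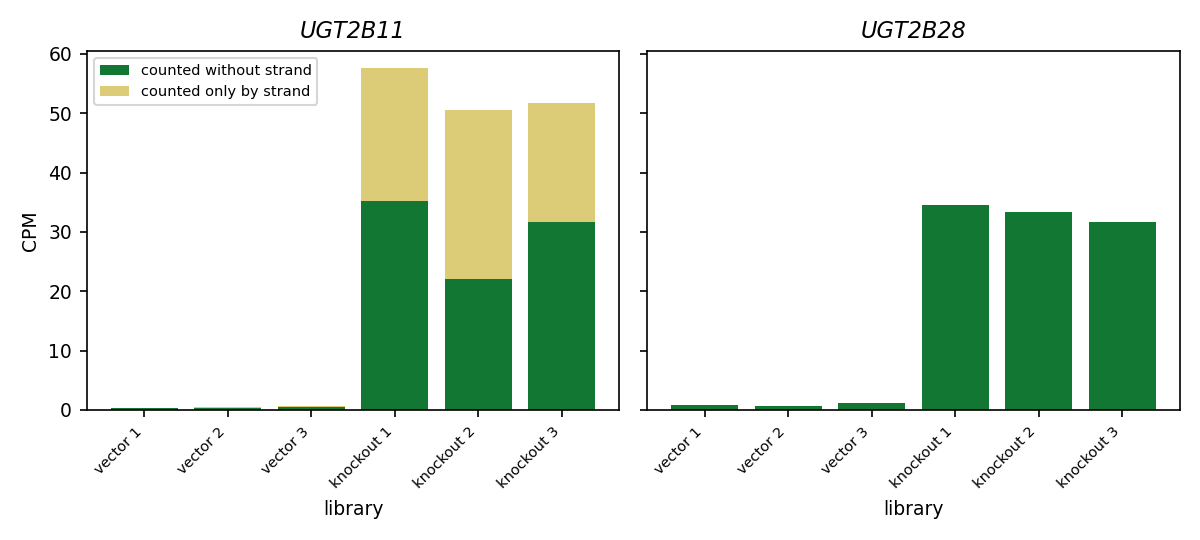
CPM of UGT2B11 (left) and UGT2B28 (right) in each library, as bars from 0. The dark part is the unstranded count and the light part is what the 2 strand columns add. The light part is 38.9%, 56.5% and 38.9% of the UGT2B11 bar in knockout libraries 1 to 3, and the UGT2B28 bars have almost none.

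With the strand sum, which gives all shared reads to UGT2B11 and is an upper limit for it, the gene stood at 57.7, 50.6 and 51.8 CPM in the knockout libraries and at 0.525 ± 0.102 CPM in the vector libraries. Knockout library 2 then lay at 0.925 of the mean of the other two, compared with 0.658 for the unstranded count. The mean of 22.8 ± 1.63 CPM per kilobase placed UGT2B11 above UGT2B28 (18.1 ± 0.824, counted the same way), with no overlap between their knockout libraries. The edgeR log2 fold change with strand sums was 6.64, and those of UGT2B17, UGT2B28 and UGT2B15 were 5.44, 5.18 and 4.40. UGT2B11 was thus the third or the first member by level per kilobase, depending on these shared reads.

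The make-up of the family's reads does not depend on scaling between libraries. It does depend on the shared UGT2B11 reads, which unstranded shares leave out. With strand sums, UGT2B11 had 1223, 805 and 1001 reads and UGT2B28 734, 531 and 612 in knockout libraries 1 to 3. In vector libraries 1 to 3 the sums were 8, 10 and 11 against 18, 11 and 21. Giving the shared reads to UGT2B11 would raise its knockout shares and lower those of UGT2B28. Whether the UGT2B28 share would then stay alike between groups was not tested. UGT2B28 supplied 31.2 ± 2.68% of the 7 genes' unstranded reads in the vector and 30.1 ± 2.54% in the knockout libraries. UGT2B11 supplied 15.2 ± 0.813% and 26.5 ± 4.14%, and UGT2B15 28.0 ± 4.2% and 15.2 ± 3.08% (SD, n = 3 each). UGT2B15 had the larger share of these 2 in every vector library and UGT2B11 in every knockout library. Neither gene's shares overlap between groups, but the vector shares rest on 8, 6 and 10 reads of UGT2B11 and 13, 12 and 19 of UGT2B15. Wilson 95% intervals of single libraries can overlap between groups. For UGT2B11 they were 8.86% to 26.8% in vector library 3 and 19.8% to 23.8% in knockout library 2. UGT2B17 supplied 22.0 ± 2.56% and 25.5 ± 4.76%. Among the knockout libraries, UGT2B17 took 30.9% in library 2 (Wilson 95% interval 28.7% to 33.2%), against 21.8% (20.2% to 23.4%) and 23.9% (22.1% to 25.7%) in libraries 1 and 3. UGT2B15 took 11.8% there (10.3% to 13.5%), against 17.7% (16.3% to 19.3%) and 16.2% (14.7% to 17.8%). Knockout library 2 thus differed from the other knockout libraries in which members it held beyond counting error. For a single vector library such an interval is wide, 14.1% to 35.8% for UGT2B15 in vector library 1. UGT2B10 made up 2.43%, 1.80% and 2.56% of the reads in knockout libraries 1 to 3.

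**Figure D3:**
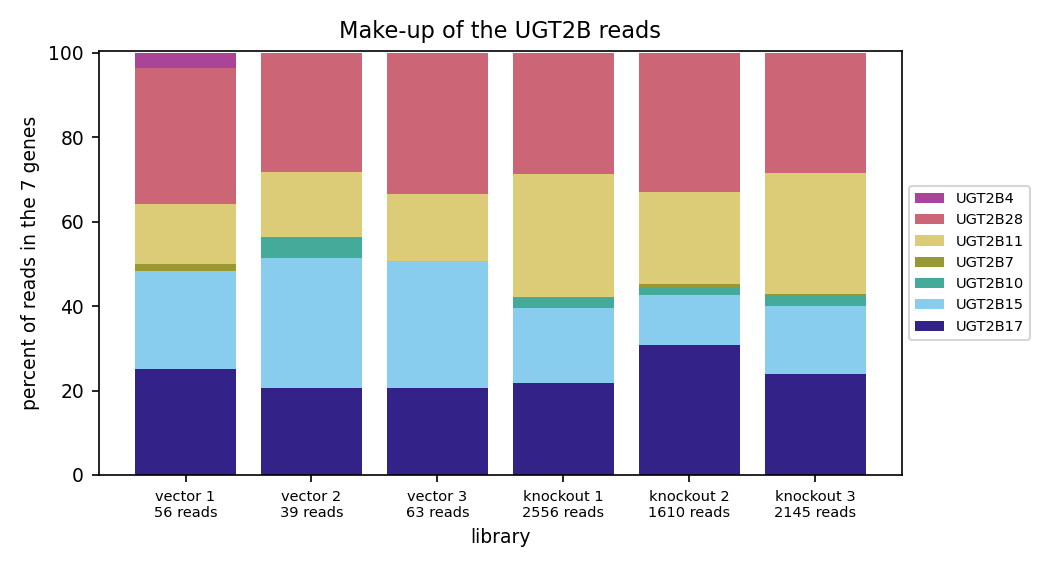
Share of each UGT2B gene in the unstranded reads of all 7 genes, as percent, in each library, with the number of such reads under the bar. Reads that UGT2B11 shares with the antisense gene are left out. The UGT2B15 share is between 23.2% and 30.8% in vector libraries and between 11.8% and 17.7% in knockout libraries.

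Sequence shared among members limits how reads were divided. Of all 100-base windows of the main transcript, 12.7% in UGT2B15 and 12.7% in UGT2B17 have an exact copy in another annotated transcript, in each case in the other gene of this pair. The share was 9.30% in UGT2B11, 6.60% in UGT2B10 and 5.71% in UGT2B28, and 0 in UGT2B7 and UGT2B4. With 50-base windows it rose to 40.9% in UGT2B11, 35.7% in UGT2B28, 31.7% in UGT2B10, 27.8% each in UGT2B15 and UGT2B17, 6.75% in UGT2B7 and 3.16% in UGT2B4. The deposited tables list multimapping reads apart from gene counts, and how many came from these stretches was not tested. The read length is not given in the sources used here. The 5 annotated UGT2B pseudogenes, 4 of them between the outermost members and UGT2B29P 19.5 kb outside, held 5 reads over the vector and 12 over the knockout libraries: UGT2B25P had 1 and 5, UGT2B27P 2 and 6, UGT2B24P 2 and 0, UGT2B26P 0 and 1, and UGT2B29P none.

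Genes between and beside the members were measured to see how far along the chromosome a difference could be found. Besides the UGT2B pseudogenes, 34 other annotated genes lie between the outermost members, most of them pseudogenes too, and 32 of the 34 had no read in any library. The remaining ones were UGT2A3, a relative expressed mainly in liver and gut, with 1 read in knockout library 3, and the antisense gene above. The log2 fold change of that gene was 5.18 ± 1.02 (edgeR adjusted p = 0.0910), and it rose by 4.46 ± 0.90 without knockout library 2 (edgeR adjusted p = 0.00175), on the reads outside UGT2B11 exons. Of 13 tested genes within 2 Mb outside the cluster, 0 were called in edgeR over the 6 libraries (3 at an unadjusted p under 0.05, beside 21.7% of all tested genes). Counting the antisense gene as well, limma-voom called 0 and DESeq2 called 2, the antisense gene higher (beside 3.96% of its tested genes) and SLC4A4 lower (beside 2.26%). The median of the 13 log2 fold change was -0.26, beside 0.00 over all tested genes, and -0.12 without knockout library 2, beside -0.01. The nearest tested gene on one side, the serine protease gene TMPRSS11E, 39.6 kb away, was at 1.06 ± 0.225 and 2.10 ± 0.512 CPM (log2 fold change 0.99 ± 0.33, edgeR adjusted p = 0.204), and rose by 1.16 ± 0.34 without knockout library 2 (edgeR adjusted p = 0.0201). The next, YTHDC1, which encodes a reader of methylated adenosine in RNA, 187 kb away, was at 25.4 ± 3.08 and 15.6 ± 10.0 CPM (edgeR adjusted p = 0.411). On the other side the nearest was ODAM, 670 kb away, at 2.16 ± 0.112 and 2.20 ± 0.468 CPM (edgeR adjusted p = 0.937). With knockout library 2 left out, the ubiquitin-activating enzyme gene UBA6 (log2 -0.37 ± 0.11, edgeR adjusted p = 0.0180) and the bicarbonate transporter gene SLC4A4 (-1.11 ± 0.11, edgeR adjusted p = 1.00e-06) fell. Those are 3 calls of 13, beside 19.1% of all tested genes.

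**Figure D4:**
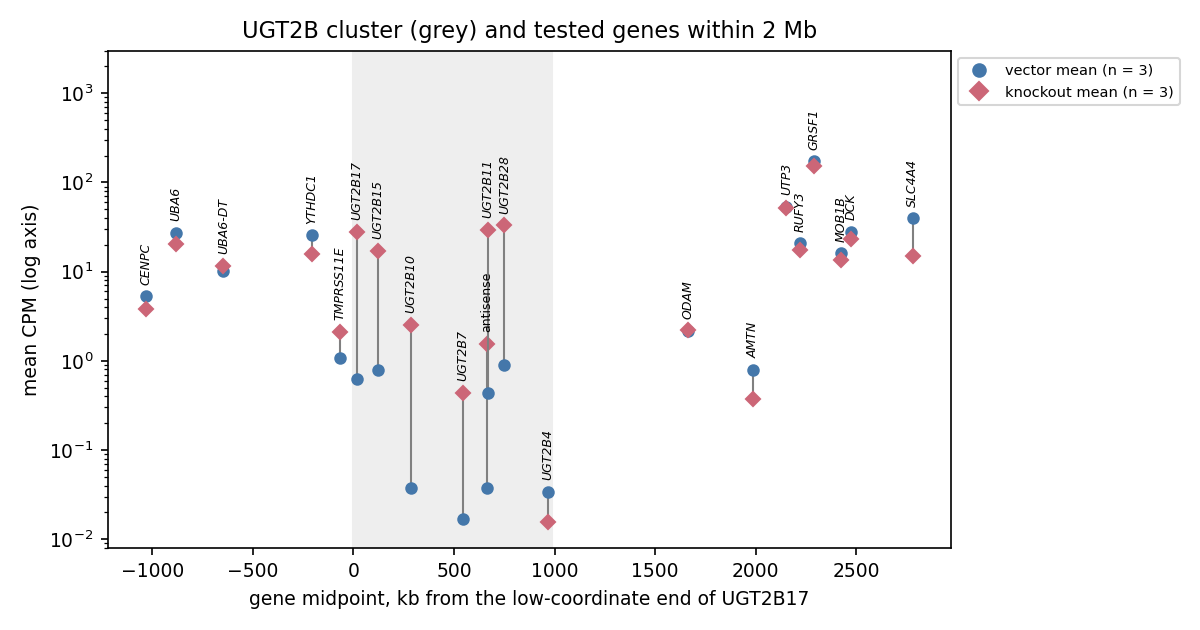
Mean CPM (log axis) of the UGT2B genes and of all tested genes within 2 Mb, by distance in kb from the low-coordinate end of UGT2B17. Circles are vector means and diamonds knockout means (n = 3), joined by a line, and the grey band is the cluster. Long lines are within the band, among them the antisense gene, and UGT2B4 at the band's right edge is near 0 in both groups.

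The rest of the androgen inactivation route was followed in 6 lists with 74 genes, of which 39 had enough reads for the test. With all libraries 0 of the 39 were called higher and 1 lower in edgeR, beside 0.418% and 0.177% of all tested genes, and 15 had an unadjusted p under 0.05, beside 21.7% of all tested genes, a share to be set beside each such count below. DESeq2 called 6 of them higher and 4 lower, beside 3.96% and 2.26% of the genes to which it gave an adjusted p. With limma-voom 0 were higher and 1 lower, beside 0.418% and 0.247% of tested genes. Without knockout library 2, 6 were higher and 8 lower, beside 10.2% and 8.88% of all tested genes. The median log2 fold change was -0.05 with all libraries and -0.03 without knockout library 2, close to 0.00 and -0.01 over all tested genes.

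The remaining UDP-glucuronosyltransferases did not share the level of the UGT2B genes. Of 15 genes 0 passed in edgeR in either fit, and UGT8, which makes the galactolipid of myelin, was the one tested (16.5 ± 1.32 and 13.3 ± 1.41 CPM). The other 14, which are the UGT1A, UGT2A and UGT3A genes, had 13 reads in all over the vector and 10 over the knockout libraries, at most 6 for a gene, and 7 of them had none. A count of 0 over the 6 libraries allows up to 0.0267 CPM (3 counts, counting error only). UGT1A genes share their last exons, so reads there are ambiguous and these levels are lower limits.

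Among 7 genes that supply UDP-glucuronic acid, 6 were tested and 0 passed in edgeR over the 6 libraries (2 at an unadjusted p under 0.05). UGDH, which oxidises UDP-glucose to the sugar that UGT2B enzymes consume, was at 54.9, 49.3 and 56.2 CPM in the vector and 41.8, 26.9 and 42.4 CPM in the knockout libraries. Its groups do not overlap and its log2 fold change was -0.53 ± 0.19 (edgeR adjusted p = 0.212). It fell without knockout library 2 (log2 -0.35 ± 0.09, edgeR adjusted p = 0.00895), the opposite direction from the UGT2B genes. PGM1, a phosphoglucomutase at the start of the route, was at 6.59 ± 0.726 and 11.2 ± 1.24 CPM (edgeR adjusted p = 0.119) and rose by 0.85 ± 0.16 without knockout library 2 (edgeR adjusted p = 0.000843). UGP2, which makes UDP-glucose, was at 28.1 ± 1.69 and 27.2 ± 1.84 CPM (edgeR adjusted p = 0.824). SLC35D1, which carries UDP-glucuronic acid into the endoplasmic reticulum, was at 0.13 ± 0.141 and 0.307 ± 0.171 CPM and was not tested.

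Genes of glucuronide cleavage and export gave 5 tested of 7, with 0 past the edgeR threshold over the 6 libraries (1 at an unadjusted p under 0.05). The exporter gene ABCC4 (MRP4) was at 298, 244 and 296 CPM in the vector and 163, 90.3 and 164 CPM in the knockout libraries. Every knockout library was below every vector library, at a log2 fold change of -1.01 ± 0.25 in all (edgeR adjusted p = 0.143), and ABCC4 fell by 0.78 ± 0.08 without knockout library 2 (edgeR adjusted p = 2.29e-06). In that fit the exporter gene ABCC1 also fell (log2 -0.32 ± 0.09, edgeR adjusted p = 0.0194) and ABCC5 rose (0.38 ± 0.10, edgeR adjusted p = 0.0137). GUSB, the lysosomal enzyme that removes glucuronic acid again, was at 77.7 ± 2.55 and 97.6 ± 20.3 CPM (edgeR adjusted p = 0.265).

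Sulfation is the other route by which steroids are conjugated. Of 11 genes 7 were tested and 0 passed in edgeR over the 6 libraries (3 at an unadjusted p under 0.05). SULT2B1, a sulfotransferase of hydroxysteroids and cholesterol, was at 4.2, 4.48 and 3.35 CPM in the vector and 9.96, 21.5 and 9.10 CPM in the knockout libraries. Its groups do not overlap and knockout library 2 was highest (log2 fold change 1.75 ± 0.36, edgeR adjusted p = 0.106). Without that library SULT2B1 rose by 1.24 ± 0.19 (edgeR adjusted p = 0.000107). STS, which removes sulfate from steroids, was at 15.9 ± 1.16 and 9.42 ± 1.30 CPM (edgeR adjusted p = 0.113) and fell by 0.65 ± 0.13 without knockout library 2 (edgeR adjusted p = 0.00207).

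Enzymes that make and interconvert androgens, the substrates of UGT2B15 and UGT2B17, gave 11 tested of 19, with 0 past the edgeR threshold over the 6 libraries (6 at an unadjusted p under 0.05) and a median log2 fold change of 0.64 (0.18 without knockout library 2). AKR1C2, which reduces dihydrotestosterone to the androstanediol that these UGTs conjugate, was at 0.753 ± 0.119 and 3.40 ± 1.02 CPM (log2 fold change 2.16 ± 0.34, edgeR adjusted p = 0.0512). HSD17B14, a 17-beta-hydroxysteroid dehydrogenase, was at 0.0512, 0.448 and 0.440 CPM in the vector and 2.27, 4.09 and 3.26 CPM in the knockout libraries (log2 fold change 3.34 ± 0.59, edgeR adjusted p = 0.0705). Both rose without knockout library 2, by 1.96 ± 0.35 and 3.13 ± 0.50 (edgeR adjusted p = 0.000645 and 0.000194), as did HSD17B11 (0.65 ± 0.17, edgeR adjusted p = 0.0116). Counts of AKR1C genes, whose sequences are closely alike, are uncertain. RDH11 (log2 -0.64 ± 0.07, edgeR adjusted p = 1.57e-06) and HSD17B4 (-0.25 ± 0.07, edgeR adjusted p = 0.0156) fell in that fit.

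Of 15 factors known to bind or regulate UGT2B genes, 9 were tested and 1 fell in edgeR with all libraries, AHR, the dioxin-binding aryl hydrocarbon receptor. AHR was at 1.89, 2.35 and 2.20 CPM in the vector and 0.425, 0.189 and 0.362 CPM in the knockout libraries. The groups are far apart at a low level, and the log2 fold change was -2.67 ± 0.37 (edgeR adjusted p = 0.0353, with a range of 5.59e-06 to 0.227 over all alternatives). The call was lost when any library other than knockout library 2 was left out. FOXA1, a forkhead factor that opens chromatin in prostate cells, was at 345 ± 26.1 and 235 ± 57.0 CPM (edgeR adjusted p = 0.214), and it fell by 0.37 ± 0.07 without knockout library 2 (edgeR adjusted p = 0.00136). The vitamin D receptor gene VDR was at 51.0 ± 4.30 and 43.9 ± 5.57 CPM (edgeR adjusted p = 0.345). HNF4A, a liver factor gene, had 0 reads in the vector and 2 reads in the knockout libraries, and the bile acid receptor gene NR1H4 and the xenobiotic receptor gene NR1I2 had no reads.

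**Figure D5:**
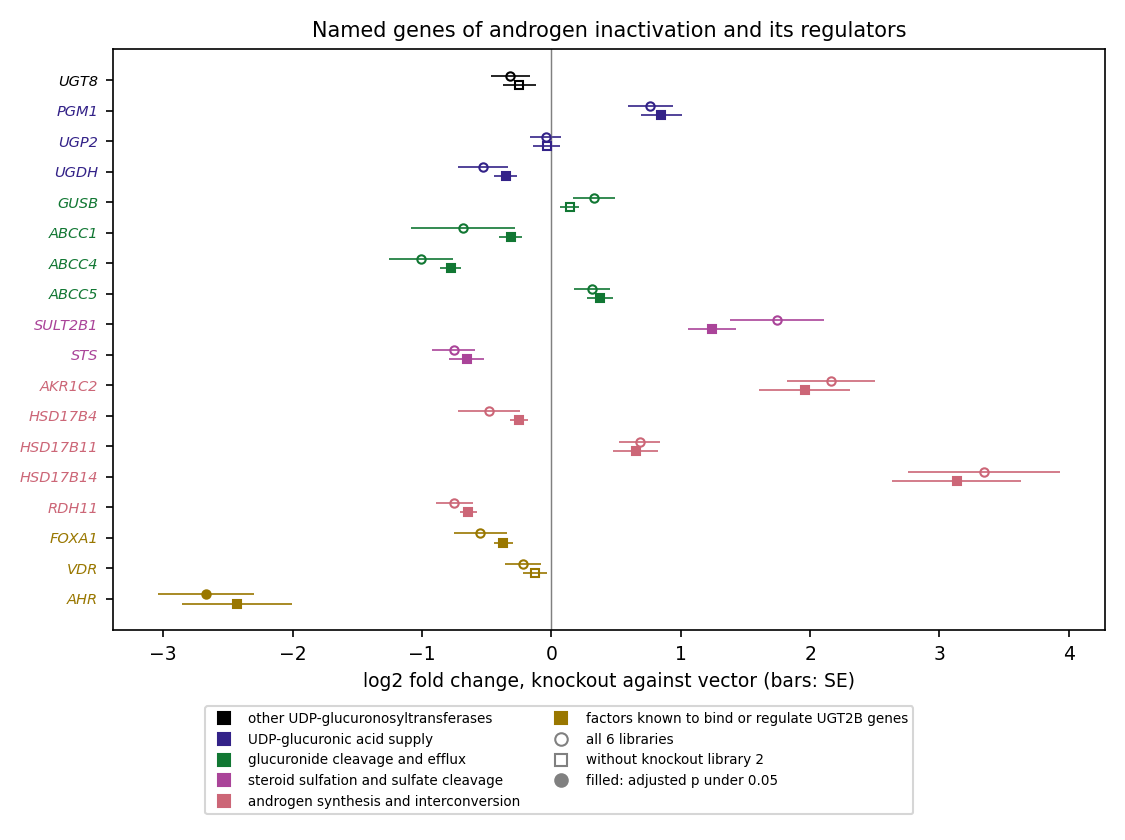
Log2 fold change between knockout and vector libraries for the tested genes named above from the 6 lists, with SE as bars, from all 6 libraries (circles) and without knockout library 2 (squares). Filled symbols passed an adjusted p of 0.05 in edgeR, and colours give the list. AHR is the only filled circle, and 14 squares are filled.

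The genes whose pattern over the 6 libraries was nearest to that of the family were sought among the 11590 tested protein-coding genes that averaged 1 CPM or more. The measure was the Euclidean distance between centred log2 CPM profiles, in log2 units, and the reference was the mean profile of the 5 tested members, whose own distances to it were 0.527 (UGT2B28) to 1.32 (UGT2B10). The nearest genes were IGFBP3 at 1.04, BMP7 at 1.97, MAT1A at 2.00, NR2F1 at 2.05 and FGF21 at 2.24. IGFBP3, which encodes a binding protein of insulin-like growth factors, was thus nearer to the family's mean than UGT2B10 or UGT2B11 (1.08) was. BMP7, a bone morphogenetic protein gene, was at 0.448 ± 0.0603 CPM in the vector and 5.00, 7.68 and 5.53 CPM in the knockout libraries. MAT1A, which makes S-adenosylmethionine and is known as a liver gene, was at 0.343 ± 0.179 CPM in the vector and 3.82, 5.28 and 4.55 CPM in the knockout libraries. FGF21, a hormone gene also known from liver, was at 0.477 ± 0.282 CPM in the vector and 5.05, 9.56 and 5.22 CPM in the knockout libraries. None of these lies on chromosome 4, and being chosen for their likeness they are a description only.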

How the data were processed

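Total RNA of 6 C4-2 libraries was sequenced, 3 per group, and titles gave groups and replicate numbers. RNeasy extraction and a SMARTer kit were used, per the labels' protocols, and FastQC, STAR and GRCh38, per the submitters' processing notes. Tool versions and the release of the gene models were not given in the sources used here. Raw counts by gene, from the authors, are in every deposited file, in 1 unstranded and 2 stranded columns. Sums of the stranded columns differed by ratios of 1.02 to 1.04, so the unstranded column was used. Summary rows stayed out: 11.1% to 14.4% of reads were ambiguous, 6.49% to 8.73% multimapping and 3.62% to 7.45% outside genes.

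edgeR 4.0.16 in R 4.3.3 fitted all genes (robust quasi-likelihood test after filterByExpr and TMM, no block, Benjamini-Hochberg adjustment, threshold 0.05). SE is the log2 fold change divided by the square root of F. A prior count of 2 went into log2 CPM. DESeq2 1.42.0, limma 3.58.1 (voom), other scalings, filters, strand columns, a replicate block and leaving out each library were alternatives, and the sum of the strand columns was added after the data were seen. Members and lists were chosen with earlier results of these data known. Named are all members and pseudogenes, list genes called in either fit and otherwise up to 3 of the highest mean CPM, the nearest and all called neighbours, and the 5 genes nearest in profile. UGP2, SLC35D1, GUSB, VDR, HNF4A, NR1H4, NR1I2, UGT2A3 and YTHDC1 were added for their role or place after values were seen. Some results of the lists are not reported here. The coefficient of variation between replicates that edgeR fitted was 24.2% with all libraries and 8.00% without knockout library 2. A gene not called with all libraries is thus not shown to be unchanged. The fitting script was also run on simulated data, whose outcome is not reported here and is not used. Names matched for 62672 of 62696 genes, spans and exon lengths are from GENCODE 29, promoters from RefSeq, and alignments used Biopython 1.88.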

Additional observations from a re-analysis of the deposited data

How the results depend on the processing

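The summed UGT2B log2 ratio was 5.12 to 5.53 over all 11 alternatives, each within the spread between libraries of the main value. Log2 fold changes of the 5 tested members ranged from 4.23 to 8.58 over 79 combinations of member and alternative and never changed sign. The highest was UGT2B10 without vector library 2, which leaves it at 0 vector reads.

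The count of called genes, 94 in the main test, was 39 with library size only, 363 with no filter, 980 with the DESeq2 Wald test, 5 with the replicate block, 57 and 38 in strand columns 1 and 2, and 4 to 3123 with 1 library left out. List genes called, 1 in the main test, numbered 0 with library size only, with the block and in both strand columns, 6 with no filter, 10 with DESeq2 and 0 to 14 with 1 library left out. Neighbours called, 0 in the main test, numbered 1 with no filter, 2 with DESeq2, 1 in each strand column, 1 with their sum and 0 to 4 with 1 library left out. Each highest value came without knockout library 2, and the cause was not tested. Called with limma-voom were 105 genes, of them 1 list gene and 0 neighbours. The 1 neighbour called in each strand column and in their sum was the antisense gene. Of its strand-summed reads, 95.2%, 91.1% and 96.6% in knockout libraries 1 to 3 were absent from the unstranded column. These are the reads shared with UGT2B11.

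The titles give same-numbered libraries only a number in common. Their deviations from the group means correlated at 0.135, 0.194 and 0.0841, and each library correlated best with its own number. Pairs of unlike number correlated at -0.193 to 0.0762. Whether same-numbered libraries share a batch was not tested. Because the members were chosen from this same contrast, their calls under the alternatives show only how the test depends on processing. With the replicate block, UGT2B11, UGT2B15, UGT2B17 and UGT2B28 passed and UGT2B10 had an edgeR adjusted p of 0.107. UGT2B10 also missed the threshold with library size only (edgeR adjusted p = 0.0656) and in strand column 2 (0.0602), and it was not tested in strand column 1. Low counts of UGT2B7, UGT2B4 and the vector libraries limit their precision.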
